A study of Homo sapiens with 2 samples.

Results

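The cadherins, claudins and desmosome genes are the adhesion and sealing genes of epithelial cell contacts. They were taken as every row whose gene symbol belongs to the claudins, the numbered cadherins, the desmocollins and desmogleins, desmoplakin, plakoglobin, the plakophilins, occludin, the TJP and MARVELD genes, the catenins CTNNA, CTNNB1 and CTNND1, EPCAM or F11R. This rule used no measured value and found 73 of 57773 rows, namely 23 claudins, 8 other tight junction genes, 23 cadherins, 5 catenins, 7 desmosomal cadherins, 6 desmosomal plaque genes and EPCAM. Total RNA was sequenced from BFTC 905, an established line from a human urothelial carcinoma of the bladder, which the labels describe as low in ANGPTL4. The vector control library came from BFTC 905 cells carrying pcDNA3.1-myc-His (-) A, and the other library from BFTC 905 cells carrying a plasmid that overexpresses ANGPTL4, a secreted regulator of lipoprotein lipase. Both were stable clones selected under 400 ug/ml G418. The number of clones in each is not given, so a difference between clones and an effect of ANGPTL4 cannot be told apart. Each group is 1 library. There is therefore no replicate error to set a difference against and p-values are not given. Every comparison is between these 2 libraries, not between the conditions.

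Epithelial cells are held together by several junctions stacked along their sides. In tight junctions, claudins and occludin-like membrane proteins seal the gap between cells and are anchored by the ZO scaffold proteins (the TJP genes). In adherens junctions, classical cadherins bind across the gap and are tied to actin by beta-, alpha- and p120-catenin. In desmosomes, desmogleins and desmocollins bind across the gap and are tied to keratin filaments by plakoglobin, plakophilins and desmoplakin. Urothelium, the lining of the bladder, relies on all of them for its barrier, and loss of E-cadherin is a classical mark of epithelial to mesenchymal transition.

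The values are RPKM, read numbers divided by exon length and by the reads of the library, so levels of different genes can be set side by side. The steps of the RPKM values corresponded to 6572767 reads in the vector control and 3233596 in the ANGPTL4 library. ANGPTL4 itself was at 3.92 RPKM with the vector and 91.2 RPKM with ANGPTL4. Of the 73 junction genes, 38 reached 1 RPKM in at least 1 library and are called measured, 14 had reads but stayed under 1 RPKM, and 21 were listed at 0 in both. A gene of 2 kb listed at 0 could still have had up to 0.228 RPKM with the vector and 0.464 RPKM with ANGPTL4, the level of 3 reads. In bulk RNA, fewer cells of a kind and less RNA per cell cannot be told apart.

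None of the 38 measured junction genes differed 2-fold between the libraries on the log2(RPKM + 1) scale. Among all 11820 measured rows, 1.2% were at least 2-fold higher in the ANGPTL4 library and 1.92% at least 2-fold lower, or 1.56% and 1.18% after subtraction of the median of all rows. The median log2 ratio was -0.10 for the junction genes and -0.11 for all measured rows. With 24 of the 38 below 0 and 14 above 0, the genes leaned the way the whole table did, and after subtraction of the median of all rows 18 lay below and 20 above. Smaller differences were resolved by read number. The exact 95% interval of the ratio, which covers counting error only, lay wholly below 1 for 14 of the 38 genes and wholly above 1 for 3, beside 26.2% and 8.49% of all measured rows. For the 27 genes with at least 5 RPKM the counts were 11 and 3, beside 35.3% and 11.3% of all rows at that level. After subtraction of the median of all rows, 12 of the 38 intervals lay below 1 and 7 above, beside 15.9% and 15.9% of all measured rows. Intervals are narrower for genes with more reads, and the median level with the vector was 14.7 RPKM for the junction genes and 6.02 RPKM for all measured rows. The part of this in the interval counts was not tested, so the counts are given as a description only.

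**Figure D1:**
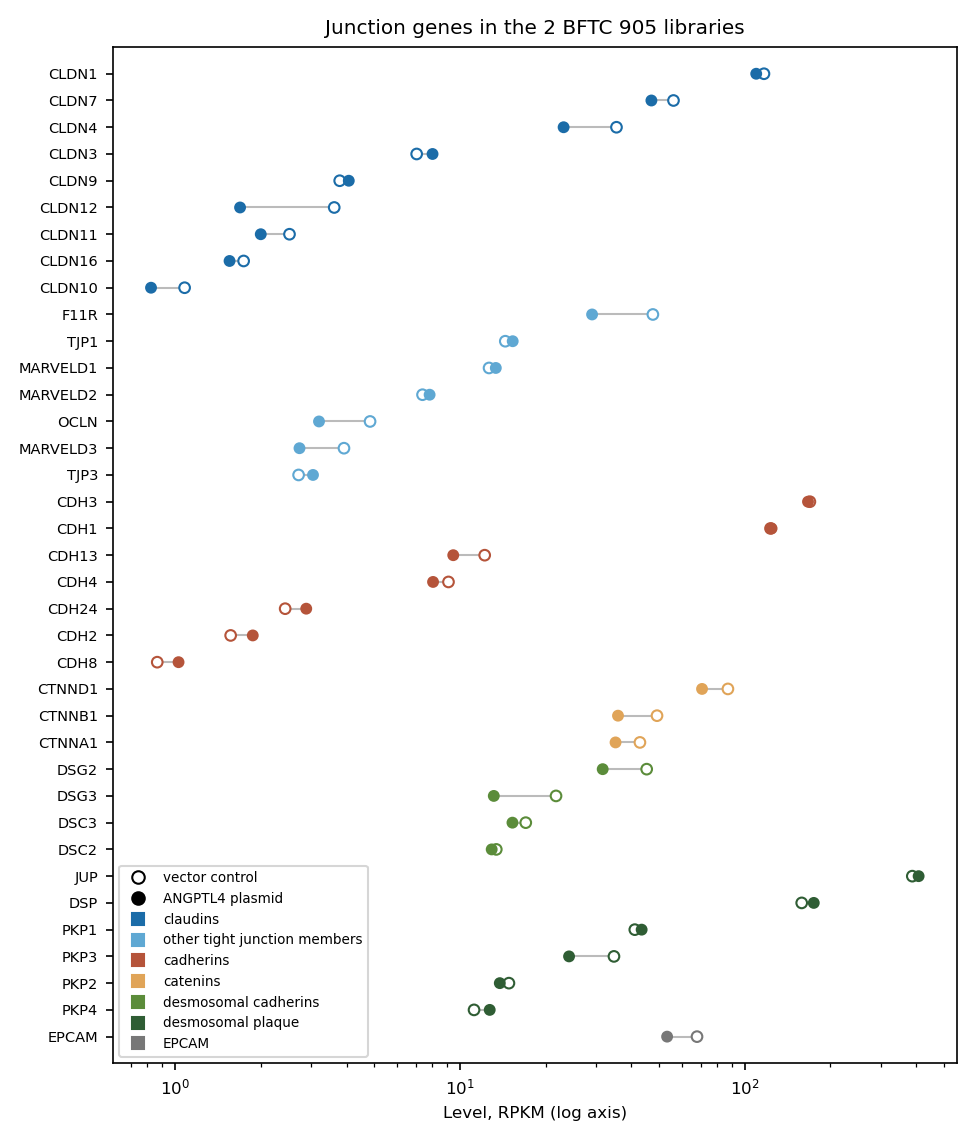
Levels of 37 of the 38 measured junction genes in RPKM (log axis), with an open circle for the vector control library and a filled circle for the ANGPTL4 library, coloured by junction type. The classical cadherins CDH1 and CDH3 lie on top of each other between the libraries, while F11R, CLDN4, CLDN12 and DSG3 are shifted to lower levels.

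The classical epithelial cadherins were abundant and nearly equal in the libraries. E-cadherin, CDH1 (chromosome 16, 68771128 to 68869451, in hg19 as all gene positions below), was at 123.2 RPKM with the vector and 124.3 RPKM with ANGPTL4. These are 4983 and 2473 reads and a ratio of 1.01 (95% interval 0.961 to 1.06), so an E-cadherin difference beyond about the width of that interval would have been visible above counting error. P-cadherin, CDH3, the cadherin of basal epithelial layers, was at 169.4 and 166.8 RPKM (ratio 0.985, 0.940 to 1.03). P-cadherin thus stood above E-cadherin in both libraries, by 1.37-fold with the vector and 1.34-fold with ANGPTL4. Relative to the median ratio of all measured rows, 0.911, the ratios were 1.11 for CDH1 and 1.08 for CDH3, with intervals above 1, so the direction for CDH3 depends on the scaling.

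N-cadherin, CDH2, the mesenchymal and neural classical cadherin, was at 1.57 RPKM with the vector and 1.87 RPKM with ANGPTL4, from 51 and 30 reads (ratio 1.20, 0.735 to 1.91). E-cadherin was 78.6-fold above it with the vector and 66.3-fold above it with ANGPTL4, so E-cadherin stood far above N-cadherin in both libraries. The N-cadherin values are given for its role, although so few reads leave a wide interval. T-cadherin, CDH13, which is held in the membrane by a lipid anchor and lacks the catenin-binding tail, was the only cadherin whose counting interval excluded 1. It was at 12.2 RPKM with the vector and 9.48 RPKM with ANGPTL4 (1148 and 438 reads, ratio 0.776, 0.693 to 0.867). R-cadherin, CDH4, was at 9.12 and 8.05 RPKM (ratio 0.883, 0.735 to 1.06). The remaining measured cadherins, CDH24 and CDH8, are type II cadherins and were at 2.44 and 2.89 RPKM for CDH24 and 0.866 and 1.03 RPKM for CDH8. CDH3 and CDH1 together made up 91.4% of the summed cadherin RPKM with the vector and 92.2% with ANGPTL4.

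Of the other 16 cadherins, 7 had some reads and 9 were listed at 0 in both. CDH23, a cadherin of hair cell tip links, had 54 and 30 reads and CDH26 had 17 and 10, both below 0.6 RPKM. The cadherin of endothelium, CDH5, had 2 reads with the vector and 1 with ANGPTL4, and CDH11, a cadherin of mesenchymal cells, had 1 and 0. CDH6, CDH15 and CDH16 had at most 14 reads in a library. CDH7, CDH9, CDH10, CDH12, CDH17, CDH18, CDH19, CDH20 and CDH22 were the cadherins listed at 0.

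All 3 measured genes of the catenin group, which leaves out plakoglobin, were lower in the ANGPTL4 library, also relative to the median of all rows. Of all 11820 measured rows, 7620 were below 0 before centring. Plakoglobin, JUP, a catenin grouped here with the desmosomal plaque, was not lower (ratio 1.05, 1.02 to 1.08). Beta-catenin, CTNNB1, which links cadherins to alpha-catenin and carries Wnt signals, was at 49.2 RPKM with the vector and 35.9 RPKM with ANGPTL4 (4274 and 1534 reads, ratio 0.730, 0.688 to 0.774). The p120-catenin gene CTNND1, whose protein keeps cadherins at the cell surface, was at 87.3 and 70.8 RPKM (ratio 0.811, 0.770 to 0.854). The alpha-catenin gene CTNNA1 was at 42.9 and 35.2 RPKM (ratio 0.821, 0.762 to 0.884). Their median log2 ratio was -0.30 over the 3 genes. The read-through row TMX2-CTNND1, which overlaps CTNND1, was at 0.780 RPKM with the vector and at 0 with ANGPTL4, so some CTNND1 reads may be divided between rows. The neural and the testis and heart alpha-catenins, CTNNA2 and CTNNA3, were listed at 0 in both libraries.

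Claudins, the 4-pass membrane proteins that form tight junction strands, were led by CLDN1 in both libraries. CLDN1, a barrier-forming claudin, was at 116.8 RPKM with the vector and 109.8 RPKM with ANGPTL4 (ratio 0.939, 0.879 to 1.0), and relative to the median ratio it was 1.03, so its direction depends on the scaling. CLDN7, whose protein also lies along the lateral membrane, was at 56.2 and 47.0 RPKM (ratio 0.836, 0.740 to 0.944), and its interval included 1 relative to the median. ELP5, whose region overlaps that of CLDN7, was at 7.17 and 6.10 RPKM. CLDN4 (chromosome 7, 73213872 to 73247014) was at 35.5 and 23.1 RPKM from 1094 and 351 reads. Its ratio of 0.652 (0.577 to 0.736) was the lowest among claudins above 5 RPKM. The level of CLDN1 was 3.29-fold that of CLDN4 with the vector and 4.75-fold that of CLDN4 with ANGPTL4, a comparison within each library that no scaling alters.

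CLDN12, a widely expressed claudin, had the lowest ratio of all measured junction genes. It was at 3.62 RPKM with the vector and 1.69 RPKM with ANGPTL4, from 161 and 37 reads (ratio 0.467, 0.318 to 0.671). On the log2(RPKM + 1) scale this was -0.78. Of all measured rows, 4.53% were at least 2-fold lower with a pseudocount of 0.1 in place of 1. CLDN12 was the only junction gene past 2-fold at that setting. Its region overlaps CDK14 and GTPBP10, which stood at 2.98 and 2.94 RPKM (CDK14) and 1.78 and 1.60 RPKM (GTPBP10). CLDN3, the neighbour of CLDN4, was at 7.05 and 8.02 RPKM (59 and 33 reads, ratio 1.14, 0.719 to 1.77). CLDN9 was at 3.79 and 4.07 RPKM, CLDN11, a claudin of myelin and testis, at 2.52 and 2.0 RPKM, and CLDN16, a claudin of the kidney tubule, at 1.74 and 1.55 RPKM. CLDN10, an ion channel-forming claudin, was at 1.08 and 0.823 RPKM, and the intervals of these 4 genes included 1. Summed over all 23 claudins the level was 231 RPKM with the vector and 199 RPKM with ANGPTL4.

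Among the 14 claudins below 1 RPKM, 9 were listed at 0 in both libraries, including CLDN5, the claudin of endothelium, the cation channel claudin CLDN2 and the gastric claudin CLDN18. CLDN14, CLDN17, CLDN19, CLDN20, CLDN22 and CLDN25 were the others. CLDN23 and CLDN15 were just under the limit in the control, at 0.982 and 0.947 RPKM, and were at 0.285 and 0.428 RPKM in the ANGPTL4 library. With 14 and 2 reads for CLDN23 and 18 and 4 for CLDN15, neither difference was detectable at this depth. CLDN6, CLDN8 and CLDN24 had at most 1 read in either library.

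The other tight junction genes were split. F11R (chromosome 1, 160965001 to 160991138), which encodes the adhesion molecule JAM-A, was at 47.6 RPKM with the vector and 29.1 RPKM with ANGPTL4. Its 1585 and 477 reads gave a ratio of 0.612 (0.551 to 0.678), the lowest among junction genes above 25 RPKM. The clone-named row RP11-544M22.13, whose region overlaps that of F11R, was higher with ANGPTL4, at 3.96 RPKM with the vector and 10.4 RPKM with ANGPTL4, so the division of reads between these rows is uncertain. Occludin, OCLN, was at 4.84 and 3.20 RPKM (215 and 70 reads, ratio 0.662, 0.498 to 0.870). Part of OCLN has a near-identical copy nearby on its chromosome, so its reads are uncertain. MARVELD3, a relative of occludin, was at 3.92 and 2.73 RPKM (ratio 0.698, 0.507 to 0.948), and its interval included 1 relative to the median of all rows. PHLPP2, whose region overlaps that of MARVELD3, was at 1.57 and 1.41 RPKM.

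The scaffolds TJP1 and TJP3 and the remaining MARVEL genes had intervals that included 1. TJP1, which encodes ZO-1, was at 14.4 RPKM with the vector and 15.3 RPKM with ANGPTL4 (ratio 1.06, 0.957 to 1.18), and its interval alone among these 8 genes lay above 1 relative to the median of all rows. TJP3, which encodes ZO-3, was at 2.71 and 3.05 RPKM. Tricellulin, MARVELD2, the protein of tricellular contacts, was at 7.39 and 7.83 RPKM (ratio 1.06, 0.845 to 1.32), and MARVELD1 at 12.7 and 13.4 RPKM (ratio 1.06, 0.859 to 1.29). The share of F11R in the summed RPKM of these 8 genes was 42.1% with the vector and 31.4% with ANGPTL4. The median log2 ratio of the 8 genes was -0.02, and relative to the median of all rows it was 0.10, so the direction of the group depends on the scaling.

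**Figure D2:**
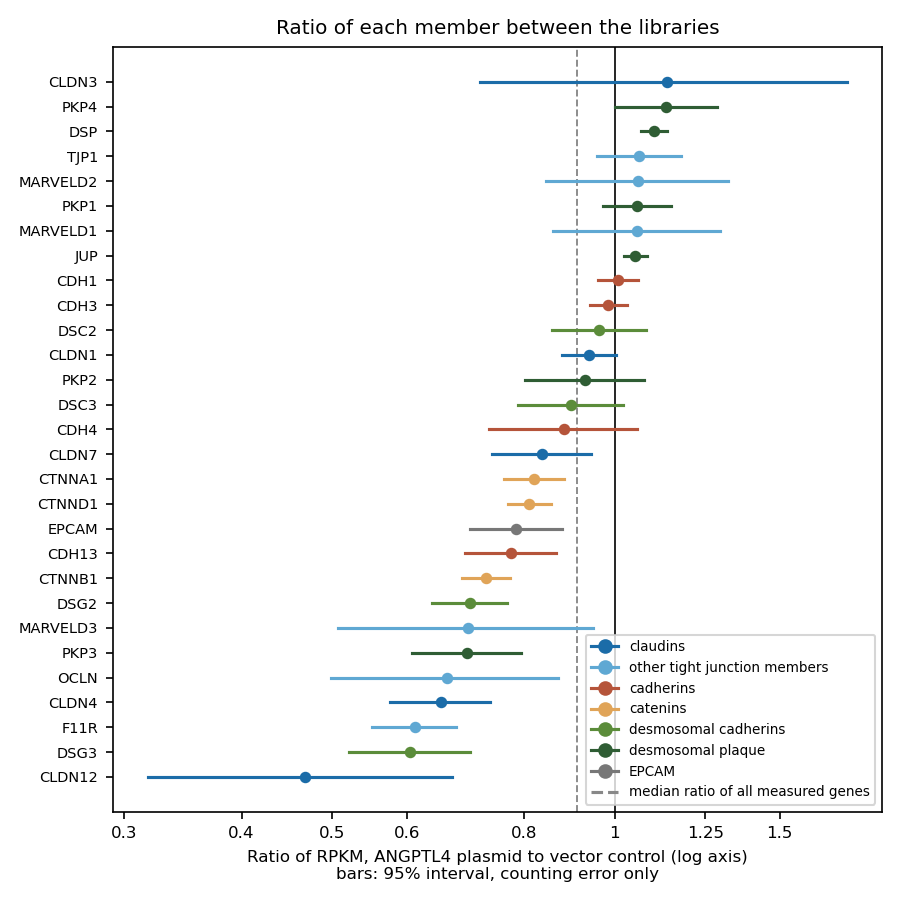
Ratio of RPKM, ANGPTL4 to vector control (log axis), for 29 of the 30 junction genes with at least 5 RPKM or an interval that excludes 1. Bars are exact 95% intervals for counting error only, the solid line is 1 and the dashed line is the median ratio of all measured rows, 0.911. The bars of DSP, JUP and PKP4 lie above 1, and those of CTNNB1, CTNND1, CTNNA1, F11R, CLDN4, DSG2 and DSG3 below the dashed line.

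The 7 desmosomal cadherins, the desmogleins and desmocollins, lie in 1 cluster of 559 kb on chromosome 18 (28569974 to 29128971, hg19), and their levels ranged from 0 to 45.3 RPKM within it. The letters before their start sites are shown as a description only. Each stretch is the 250 bases up to the start site as RefSeq gives them for GRCh38.p14, printed 5′ to 3′ along the gene's own strand, with every CG pair in capitals. DSC3 (chr18:31042743-31042992), DSC2 (chr18:31102422-31102671) and DSC1 (chr18:31162857-31163106) are on the minus strand, and DSG1 (chr18:31317910-31318159), DSG3 (chr18:31447491-31447740) and DSG2 (chr18:31497927-31498176) on the plus strand. DSG4 had no entry.
DSC3: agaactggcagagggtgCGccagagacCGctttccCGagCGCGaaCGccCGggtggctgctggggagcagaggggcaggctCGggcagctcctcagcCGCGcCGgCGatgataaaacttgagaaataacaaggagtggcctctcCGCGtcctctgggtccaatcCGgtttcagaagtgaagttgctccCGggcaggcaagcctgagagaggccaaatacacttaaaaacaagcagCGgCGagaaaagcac
DSC2: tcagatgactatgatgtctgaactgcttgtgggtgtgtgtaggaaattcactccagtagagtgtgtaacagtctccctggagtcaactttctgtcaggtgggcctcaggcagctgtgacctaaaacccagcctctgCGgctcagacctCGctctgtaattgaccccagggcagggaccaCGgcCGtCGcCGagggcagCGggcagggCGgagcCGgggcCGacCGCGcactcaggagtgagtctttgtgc
DSC1: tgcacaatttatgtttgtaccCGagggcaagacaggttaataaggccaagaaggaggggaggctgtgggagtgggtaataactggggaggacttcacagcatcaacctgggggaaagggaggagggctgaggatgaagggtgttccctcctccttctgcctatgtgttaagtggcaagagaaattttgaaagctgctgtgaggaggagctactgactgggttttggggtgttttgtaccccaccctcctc
DSG1: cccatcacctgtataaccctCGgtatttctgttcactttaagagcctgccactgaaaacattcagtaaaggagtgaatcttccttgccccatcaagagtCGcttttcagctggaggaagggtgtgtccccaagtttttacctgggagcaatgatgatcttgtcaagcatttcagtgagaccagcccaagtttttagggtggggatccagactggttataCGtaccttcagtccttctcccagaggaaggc
DSG3: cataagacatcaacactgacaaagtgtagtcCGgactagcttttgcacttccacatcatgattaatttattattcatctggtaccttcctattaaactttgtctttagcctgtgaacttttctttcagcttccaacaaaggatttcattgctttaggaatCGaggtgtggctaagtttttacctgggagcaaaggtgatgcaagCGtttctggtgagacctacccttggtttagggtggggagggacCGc
DSG2: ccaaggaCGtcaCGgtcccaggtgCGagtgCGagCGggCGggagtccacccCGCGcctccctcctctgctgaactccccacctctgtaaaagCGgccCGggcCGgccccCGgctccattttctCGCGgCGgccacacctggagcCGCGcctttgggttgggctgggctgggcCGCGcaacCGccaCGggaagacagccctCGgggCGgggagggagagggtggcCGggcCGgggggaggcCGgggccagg

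The stretches before DSC1 and DSG1 held 1 and 3 CG pairs, and these genes were at 0.107 and 0.0869 RPKM with the vector and 0.290 and 0.0589 RPKM with ANGPTL4. Those before DSG2, DSC3 and DSC2 held 26, 18 and 12. DSG3 did not follow this order, with 4 CG pairs and 21.8 RPKM in the control. Any link between CG pairs and level was not tested. The longest run of letters that any 2 of the stretches share is aagtttttacctgggagcaa, 20 bases found before both DSG1 and DSG3, while no other pair shared more than 9 bases. DSG1 and DSG3 encode the desmogleins of stratified epithelium that are the targets in pemphigus.

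The 4 measured desmosomal cadherins were all lower in the ANGPTL4 library before centring, with a median log2 ratio of -0.32. The 2 desmogleins differed most. DSG2, the desmoglein of simple and basal epithelium, was at 45.3 RPKM with the vector and 31.7 RPKM with ANGPTL4 (1842 and 635 reads, ratio 0.701, 0.639 to 0.767). DSG3, the desmoglein of basal layers, was at 21.8 and 13.2 RPKM (790 and 235 reads, ratio 0.605, 0.520 to 0.70). Their partners, the desmocollins, had intervals that included 1. DSC3 was at 17.0 and 15.3 RPKM (ratio 0.898, 0.789 to 1.02) and DSC2 at 13.4 and 12.9 RPKM (ratio 0.964, 0.858 to 1.08, or 1.06 relative to the median). The desmogleins DSG2 and DSG3 together were 68.6% of the summed desmosomal cadherin RPKM with the vector and 61.1% with ANGPTL4. DSG4, a desmoglein of hair, was listed at 0 in both.

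Desmosomal plaque genes had the highest summed level of the junction types, 648 RPKM with the vector and 677 RPKM with ANGPTL4, mostly from JUP, and held the 3 measured junction genes with intervals above 1. Plakoglobin, JUP, the catenin shared by desmosomes and adherens junctions, was at 387.6 RPKM with the vector and 407.9 RPKM with ANGPTL4 (15193 and 7866 reads, ratio 1.05, 1.02 to 1.08). This put it at rank 53 and rank 45 among the 11820 measured rows. Desmoplakin, DSP (chromosome 6, 7541808 to 7586950), which ties the plaque to keratin filaments, was at 158.5 and 174.8 RPKM (10517 and 5704 reads, ratio 1.10, 1.07 to 1.14). PKP4, a plakophilin relative found at adherens junctions as well, was at 11.2 and 12.7 RPKM, with an interval that began just above 1 (ratio 1.14, 1.0 to 1.29). Against these, PKP3, the plakophilin of most epithelial desmosomes, was at 34.8 and 24.2 RPKM (865 and 296 reads, ratio 0.696, 0.607 to 0.795). PKP1, the plakophilin of stratified epithelium, was at 41.1 and 43.5 RPKM (ratio 1.06, 0.973 to 1.15) and PKP2 at 14.9 and 13.8 RPKM (ratio 0.929, 0.802 to 1.07, or 1.02 relative to the median). The level of PKP1 was thus 1.18-fold that of PKP3 with the vector and 1.80-fold with ANGPTL4.

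Within the desmosome, then, JUP and DSP had ratios above 1 while DSG2, DSG3 and PKP3 had ratios below 1 on the same scale, and this order does not depend on the scaling of the libraries. The level of plakoglobin was 7.88-fold that of its relative beta-catenin with the vector and 11.4-fold with ANGPTL4. The region of JUP overlaps the rows of KRT17 and EIF1, at 554.1 and 428.7 RPKM (KRT17) and 29.6 and 15.4 RPKM (EIF1). How reads were shared between overlapping rows is not given in the sources used here.

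EPCAM, the epithelial adhesion molecule that binds claudin-7, was at 68.0 RPKM with the vector and 53.4 RPKM with ANGPTL4 (1126 and 435 reads). Its ratio was 0.785 (0.701 to 0.878), and it stayed below 1 relative to the median of all rows.

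**Figure D3:**
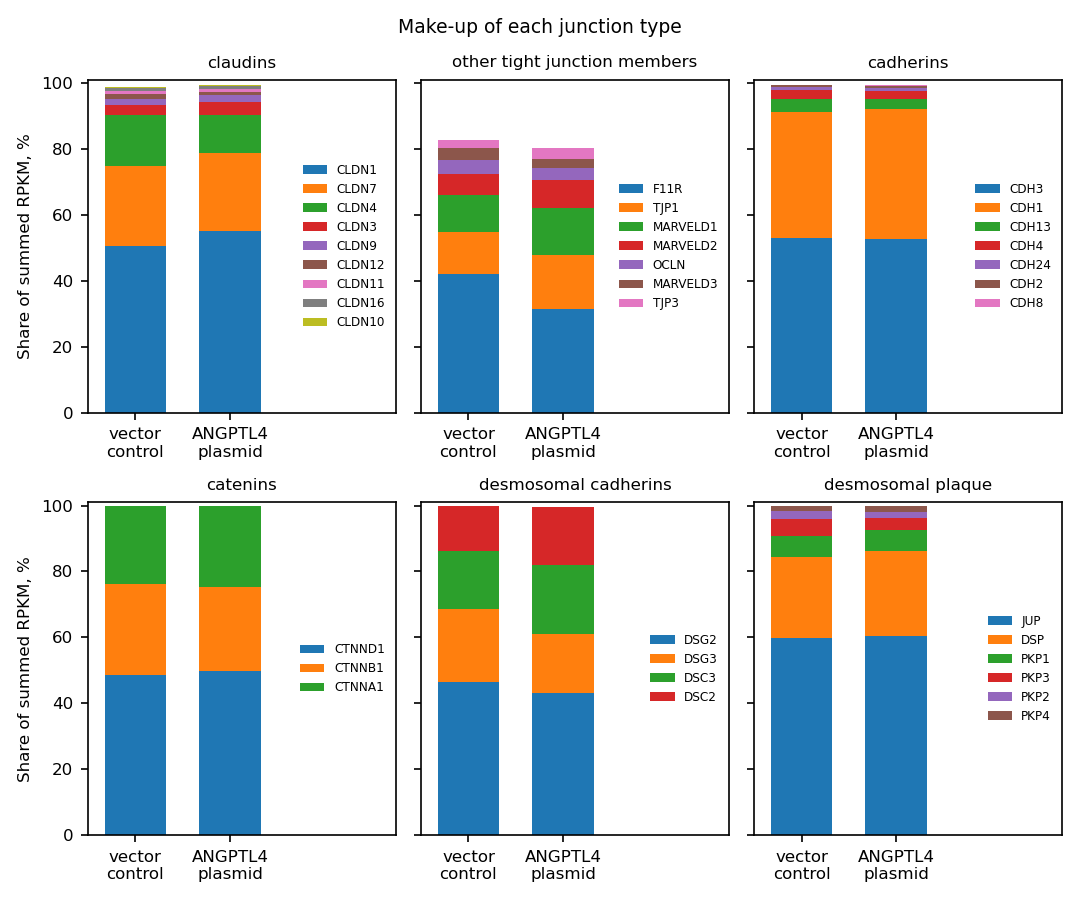
Make-up of each junction type as a share of its summed RPKM in percent, with the vector control bar on the left and the ANGPTL4 bar on the right of each panel and 1 colour per measured gene (genes under 1 RPKM and 1 measured gene among the other tight junction genes are not drawn, so bars end under 100%). The cadherin bars are nearly the same, with CDH3 at 52.9% and 52.8%, while the share of CLDN4 among claudins is 15.4% and 11.6% and that of F11R among the other tight junction genes 42.1% and 31.4%.

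Several junction genes lie side by side, and neighbours often stood at different levels. CDH3 and CDH1 are 14.6 kb apart on chromosome 16 and were the most abundant cadherins, both with ratios close to 1. The region of CLDN16 begins 65 bases beyond that of CLDN1 on chromosome 3, and its level of 1.74 RPKM in the control was far below the 116.8 RPKM of CLDN1. CLDN3 and CLDN4 are 29.3 kb apart on chromosome 7, and only CLDN4 had an interval below 1. MARVELD2 and OCLN are 48.0 kb apart on chromosome 5, and only OCLN had an interval below 1. Whether the ratios within these pairs differ was not tested.

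Start-site stretches were listed for 49 of the 73 junction genes, taking the first listed start of each. The 26 of these genes at 1 RPKM or more had a median of 17.5 CG pairs in the 250 bases before the start, and the 23 below 1 RPKM had a median of 4, beside 11 over all 27305 genes of that table. The GC box letters GGGCGG, on either strand, were present before 20 of the 26 measured genes and 4 of the 23 others, and before 42.3% of all genes. The E-box letters CACCTG, also on either strand, through which SNAI and ZEB repressors bind, were present before 6 of the 26 and 3 of the 23, and before 17.5% of all genes. DSG2 and DSP held 2 E-box matches each. The TATA box letters TATAAA were found before none of the 26 measured genes and 1 of the 23 others, CLDN17, and before 11.1% of all genes. These matches describe the letters in this window and were not tested as sites.

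Genes that work with these junctions were followed through 8 lists. Among the repressors of junction genes, ZEB1, ZEB2 and TWIST1 were under 1 RPKM. SNAI1 and SNAI2 stood above the median of all measured rows, 6.02 RPKM with the vector and 5.40 RPKM with ANGPTL4. TCF3, in the same list, was at 20.3 and 18.3 RPKM (interval 0.795 to 1.02). SNAI1 was at 6.68 RPKM with the vector and 7.89 RPKM with ANGPTL4 and SNAI2 at 11.8 and 14.5 RPKM, with intervals that included 1 (0.792 to 1.74 and 0.957 to 1.57). Relative to the median ratio of all measured rows, 0.911, the interval of SNAI2 lay above 1, so its reading depends on the scaling. ZEB1 was at 0.0355 RPKM, from 2 reads, and 0, ZEB2 at 0.00850 RPKM and 0, and TWIST1 at 0.374 and 0.761 RPKM from 5 reads each. Of 15 measured junction transcription factors, 3 had intervals above 1 and 2 below, beside 8.49% and 26.2% of all measured rows, and none differed 2-fold, with a median log2 ratio of 0.09. At its ends were OVOL1, an epithelial transcription factor, at 12.8 and 9.32 RPKM, ELF3 at 8.89 and 7.05 RPKM, KLF4 at 19.1 and 23.8 RPKM and FOXC2 at 2.35 and 3.49 RPKM.

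Connexins are the channel proteins of gap junctions. Of 14 connexins 6 were measured, and 2 of these were at least 2-fold lower and none higher, beside 1.92% and 1.2% of all measured rows. With so few genes the count is a description only. GJB5 (chromosome 1, 35220648 to 35224113), a connexin of stratified epithelium, was at 7.64 RPKM with the vector and 2.28 RPKM with ANGPTL4 (68 and 10 reads, ratio 0.299, 0.137 to 0.584). At the other end GJA1, connexin 43, was at 9.92 and 9.98 RPKM (interval 0.782 to 1.29). GJB2 was at 32.2 and 26.8 RPKM (interval 0.705 to 0.979). Of the 6, 5 had intervals below 1 and none above, beside 35.3% and 11.3% of all rows at 5 RPKM or more. The intervals of GJB2 and GJC1 included the median ratio of all measured rows, 0.911. The median log2 ratio of the 6 was -0.38.

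Of 9 hemidesmosome genes, which anchor cells to the basement membrane, 6 had intervals below 1 and 2 above, beside 35.3% and 11.3% of all rows at 5 RPKM or more. The tetraspanin CD151 was at 12.8 RPKM with the vector and 6.20 RPKM with ANGPTL4 (ratio 0.484, 0.374 to 0.620) and the integrin subunit ITGA6 at 103.2 and 114.4 RPKM. ITGB4, the integrin subunit that pairs with ITGA6, was at 156.0 and 163.1 RPKM. The list of the desmosome and cornified envelope, with keratins, had 11 measured genes and also held DSTN, an actin-binding gene. Of the 11, 7 had intervals below 1 and 3 above, beside the same 35.3% and 11.3% of all rows at 5 RPKM or more. These genes had many reads and so narrow intervals. Both counts depend on the scaling. The intervals of KRT7, KRT8, KRT14, KRT18 and KRT19 included the median ratio of all measured rows, 0.911. Those of PERP and DSTN lay below it and those of KRT5, PPL, PNN and EVPL above. Of the hemidesmosome genes, LAMA3, LAMB3 and COL17A1 had intervals that included 0.911, while those of PLEC and DST lay above it. PERP, a membrane protein of desmosomes, was at 94.3 and 52.9 RPKM (2660 and 734 reads, ratio 0.561, 0.516 to 0.609). At the upper end were PNN at 35.8 and 46.8 RPKM and PPL, periplakin, at 26.9 and 30.1 RPKM.

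In the remaining lists no gene was past 2-fold. Nectins, afadin and actin linkers had a median log2 ratio of -0.12 over 14 genes, with 5 intervals below 1 and 1 above (all measured rows 26.2% and 8.49%, as for the lists that follow), from LIMD1 at 4.38 and 2.98 RPKM to PLEKHA7 at 3.18 and 3.59 RPKM. Polarity genes had a median of -0.16 over 14 genes, with 5 intervals below 1 and none above. PARD6B, a member of the PAR complex, was at 5.86 and 3.21 RPKM (ratio 0.547, 0.391 to 0.754). Other tight junction scaffold genes had a median of 0.10 over 11 genes, with 1 interval above 1 and none below, from TJAP1 at 4.06 and 3.66 RPKM to cingulin, CGN, at 6.92 and 8.18 RPKM. The median of 9 genes of junction shedding and turnover was -0.13. In that list ADAM10, the protease that sheds E-cadherin, was at 25.5 and 18.1 RPKM (ratio 0.709, 0.660 to 0.762), while MMP14 was at 67.5 and 67.6 RPKM. After subtraction of the median of all rows, the medians were -0.27 for connexins, -0.05 for polarity genes, 0.21 for other tight junction scaffold genes and 0.20 for the transcription factors. The other 4 lists then lay within 0.02 of 0. The interval counts given for the lists are before this subtraction and depend on the scaling. For other tight junction scaffolds, the intervals of YBX3, LSR, AMOTL1, SYMPK, INADL, MAGI1 and CGN lay above the median ratio, 0.911. Among the transcription factors, those of ESRP1, ESRP2, EHF, GRHL1, KLF4, KLF5 and SNAI2 lay above it and that of OVOL1 below. The intervals of the remaining measured genes of both lists included it.

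**Figure D4:**
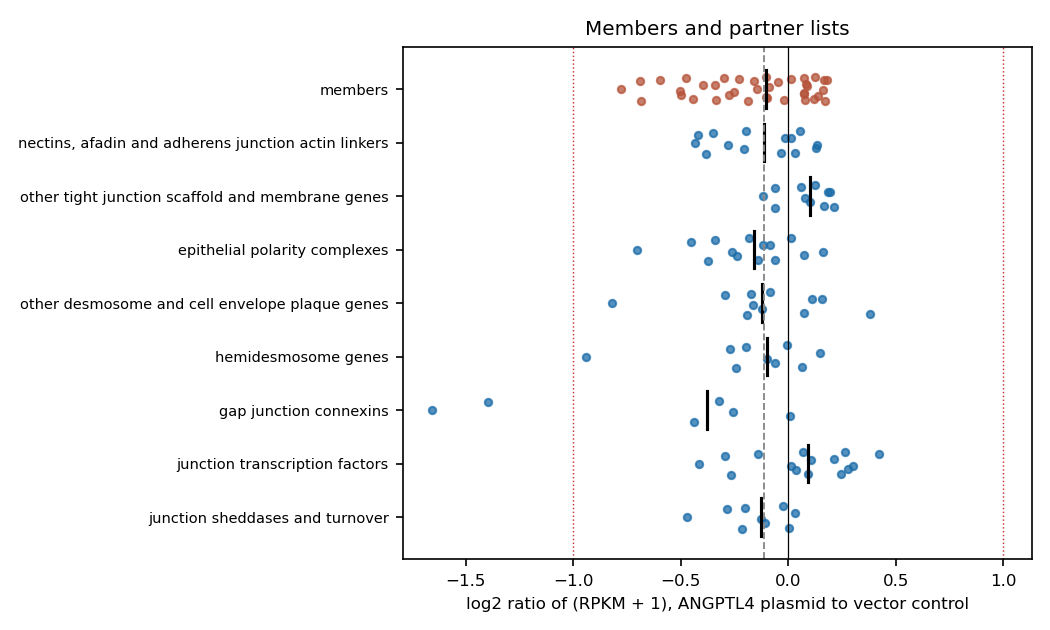
Log2 ratio of (RPKM + 1), ANGPTL4 to vector control, for the 38 measured junction genes (first line) and the measured genes of 8 partner lists, 1 point per gene. Black bars are medians, the dashed line is the median of all measured rows at -0.11 and the dotted lines mark 2-fold, which only 2 connexins pass, GJB5 among them.

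Besides EPCAM and CDH1, the cells carried the epithelial keratins KRT8, KRT18 and KRT19, at 141.3, 179.6 and 422.0 RPKM with the vector and 126.0, 164.7 and 397.3 RPKM with ANGPTL4. Of 9 urothelial markers 5 were measured, and the whole list summed to 72.1 RPKM with the vector and 69.1 RPKM with ANGPTL4. Most of this came from UPK1B, at 42.2 and 38.8 RPKM. UPK1A, FOXA1 and KRT20 stayed under 1 RPKM, and UPK3A was listed at 0 in both. PPARG was at 6.09 and 4.13 RPKM (ratio 0.678, 0.488 to 0.927) and GATA3 at 13.1 and 15.8 RPKM (ratio 1.20, 0.985 to 1.46). The fibroblast list summed to 5.44 and 5.65 RPKM, with COL1A1 the only one of 10 above 1 RPKM and COL3A1, LUM, PDGFRA, FAP and DCN at 0. The endothelial list summed to 0.653 and 1.17 RPKM and the neural and melanocyte list to 1.03 and 0.969 RPKM, with no member at 1 RPKM. The leukocyte list summed to 83.7 and 74.4 RPKM, of which LCP1 gave 65.5 and 55.2 RPKM and CD68 17.1 and 18.0 RPKM, while CD3D, CD3E and MS4A1 were at 0 in both and PTPRC, which marks nearly all leukocytes, at 0.0179 RPKM and 0. LCP1 is also made by many carcinoma lines.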

How the data were processed

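RNA sequencing of BFTC 905 cells gave 1 library per group, assigned by the transfection in the labels. The authors deposited RPKM per gene, per the file headers, and the submitters' processing notes name hg19. Aligner, counting program, annotation and strand use are not given in the sources used here.

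From these values a library total was sought at which the 13 mitochondrially encoded genes held whole reads (tolerance 0.0001 reads), and the smallest was taken. For each row, exon lengths that gave whole reads in both libraries were listed and the one nearest the GENCODE 29 length was used. This settled 82.5% of 18483 rows above 0, among them all 38 measured junction genes. Other rows took the smallest such length. Ratio intervals are exact (Clopper-Pearson) from the split of reads, and cover counting error only. The log2 ratio has a pseudocount of 1 RPKM, which understates differences of low genes. Read recovery and intervals were run on simulated reads with counting error only, known library totals and reference lengths close to the true ones. That run does not cover the search for the totals, larger length differences or differences beyond counting error.

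Members and lists were chosen with earlier results of these data known. Genes with at least 5 RPKM, or an interval excluding 1, got ratios. Of partner lists, up to 2 genes at either end were named, and a few more genes, with CDH2, CLDN15 and CLDN23, were chosen after their values were seen. PECAM1 and TUBB3 were not analysed here, and some measured genes that enter the counts and sums are not reported by name. Software was Python 3.11.15, numpy 2.4.6, pandas 2.3.3 and scipy 1.17.1. The alternatives are given in the closing section.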

Additional observations from a re-analysis of the deposited data

How the results depend on the processing

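No paired analysis was possible because each group is 1 library, and no library could be left out. The median of all measured rows was -0.11 on the log2 scale. Centring on it moved the median of the junction genes from -0.10 to 0.0092, and upper-quartile scaling moved it to 0.032. Centring also moved the medians of the other tight junction genes from -0.015 to 0.097, of the catenins from -0.30 to -0.19 and of the desmosomal plaque genes from 0.076 to 0.19. Under centring 7 in place of 3 intervals lay above 1, those of CDH1, CDH3, PKP1 and TJP1 being added, and 12 in place of 14 below 1, beside 15.9% and 15.9% of all rows. With a pseudocount of 0.1 in place of 1, 1 gene, CLDN12, was past 2-fold lower and none higher, beside 4.53% and 2.41% of all rows. No other alternative brought any junction gene past 2-fold. These were a pseudocount of 5, no minimum, a minimum of 5 RPKM, rescaling that left out ribosomal protein, mitochondrial and small RNA genes, and centring within exon-length deciles, which gave a median of -0.013. With 99% intervals 2 lay above 1 and 13 below, beside 5.42% and 18.6% of all rows. Of 30 single ratios, 5 crossed 1 under centring, CDH3, CLDN1, DSC2 and PKP2 among them, and none of the 5 had an interval excluding 1 before. Depth limits genes under 1 RPKM, where 1 read on 2 kb is 0.0761 RPKM with the vector and 0.155 RPKM with ANGPTL4.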

Other observations

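Relatives of the junction genes that the symbol rule does not take were looked up after the values were seen. CTNNAL1, alpha-catulin, was at 17.0 RPKM with the vector and 9.98 RPKM with ANGPTL4 (ratio 0.587, 95% interval 0.465 to 0.734), and CTNNBIP1, an inhibitor of beta-catenin, at 10.2 and 6.20 RPKM (ratio 0.605, 0.454 to 0.798). CLDND1, a claudin-like gene, was at 12.1 and 14.8 RPKM (ratio 1.22, 1.04 to 1.43). The atypical cadherin FAT1 was at 34.9 and 33.5 RPKM (ratio 0.961, 0.908 to 1.02) and the flamingo cadherin CELSR1 at 13.2 and 12.6 RPKM. Of 71 protocadherin rows, 38 were listed at 0 in both libraries and 5 reached 1 RPKM. Among these PCDH1, a protocadherin of airway and other epithelia, was at 19.6 and 17.5 RPKM (ratio 0.896, 0.783 to 1.02), and none of the 5 differed 2-fold.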
